A study of Mus musculus with 55 samples.

Results

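The oligodendrocyte lineage factors and precursor markers are 6 genes of a mouse neuropathology panel: Olig2, Sox10, Myrf, Nkx6-2, Cspg4 and Ptprz1. They were chosen by name, as precursor and lineage genes, since the drug PLX5622 may also act on precursors. Earlier results of these data were known when they were chosen. All 6 are among the 799 genes measured. Each symbol matched 1 RefSeq gene. The study measured RNA of the cerebral cortex on an nCounter panel, in 55 male C57BL/6 mice that were 8 to 10 weeks old when obtained. The assay counts fluorescent barcodes bound to each gene's target, here after pre-amplification. Mice ate AIN-76A chow with 1200 mg/kg PLX5622, an inhibitor of the receptor CSF1R that microglia need to survive, or the same chow without it as vehicle. Feeding began 14 days ahead of the injury, a diffuse traumatic brain injury (TBI), and went on to the end. The groups on PLX5622 were 6 naive mice and 8, 9 and 7 mice taken 1, 7 and 30 days after TBI. The groups on vehicle were 7 naive mice and 6, 7 and 5 mice at the same days. Each mouse gave 1 sample. The naive mice were uninjured, with no sham surgery named in the labels. There was 1 naive group per diet, and the sources used here do not say how long the naive mice had eaten it, so effects of injury and of time on the diet cannot be told apart. The tissue was cut out beside sections stained for CD11b, a microglial protein, in regions that held hypertrophied or rod-shaped microglia, and the sources used here do not give how regions were picked in mice that had few microglia.

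Oligodendrocytes make the myelin sheaths of the central nervous system and arise from oligodendrocyte precursor cells, which divide and remain in the adult cortex. Olig2, a basic helix-loop-helix factor, and Sox10, an SRY-box factor, act in precursors and in mature cells, while Myrf, a membrane-bound factor released by its own cleavage, switches on myelin genes as cells differentiate. Nkx6-2 is a homeobox factor of mature oligodendrocytes. Cspg4 encodes NG2, a proteoglycan on the surface of precursors and of pericytes of blood vessels, and Ptprz1 encodes a receptor phosphatase made by precursors and astrocytes. Olig2 is also known to appear in some reactive astrocytes after injury.

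The promoters of Olig2 and Ptprz1 are shown, since these genes had the members' largest injury differences relative to their error. Both sequences are RefSeq's, on GRCm38.p6, from 250 bases before to 50 bases after the annotated start. Olig2 lies at chr16:91225300-91225599 on the plus strand and Ptprz1 at chr6:22875252-22875551 on the plus strand. Capitals mark the TATA box TATAAA and the GC box GGGCGG, searched on both strands (CCGCCC is a GC box on the minus strand).
Olig2: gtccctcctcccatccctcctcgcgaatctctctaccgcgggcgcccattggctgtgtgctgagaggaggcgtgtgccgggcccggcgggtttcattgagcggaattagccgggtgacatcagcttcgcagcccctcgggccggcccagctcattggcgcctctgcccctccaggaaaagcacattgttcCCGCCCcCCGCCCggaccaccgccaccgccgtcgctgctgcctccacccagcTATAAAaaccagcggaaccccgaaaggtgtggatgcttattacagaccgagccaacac
Ptprz1: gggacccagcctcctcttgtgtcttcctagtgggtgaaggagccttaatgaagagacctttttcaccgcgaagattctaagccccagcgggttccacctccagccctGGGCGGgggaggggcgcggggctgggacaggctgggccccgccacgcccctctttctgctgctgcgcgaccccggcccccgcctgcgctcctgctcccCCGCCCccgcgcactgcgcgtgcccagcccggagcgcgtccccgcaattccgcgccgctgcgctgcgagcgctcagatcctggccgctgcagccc
The Olig2 window holds 1 TATA box and 2 GC boxes, and the Ptprz1 window holds 2 GC boxes. Of 32851 mouse promoter windows of this length, 13.6% hold a TATA box and 35.7% a GC box. The G and C content is 65.0% in the Olig2 window and 71.7% in the Ptprz1 window, against a median of 52.7% over all windows. The letters of an E-box (CANNTG, in 72.3% of windows), a STAT site (TTCNNNGAA, 8.3%) and an AP-1 site (TGANTCA, 7.8%) were also searched and are in neither window. Promoter windows matched 4 of the 6 genes: Olig2, Nkx6-2, Cspg4 and Ptprz1.

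Total barcode counts per mouse ran between 176038 and 1208609 (median 519047), over 5 nCounter cartridges and 3 RNA extraction batches. No 2 mice of a group agreed within sampling noise. Mouse 693, at 1 day on PLX5622, stood apart with the lowest total count and the lowest median correlation with the other mice (r = 0.94). Differences at 1 day on PLX5622 are given with and without it where it moved them by over 1.5 times or bore on a call. Neuron markers were present throughout, as the cortex label implies: 7 genes summed to between 23653 and 39636 normalised counts per mouse, with no zero. The 16 measured microglia markers summed to medians of 252, 360, 418 and 1011 normalised counts on PLX5622 in naive mice and at 1, 7 and 30 days, against 2720, 3830, 4107 and 3232 on vehicle. No PLX5622 mouse reached a vehicle mouse (highest 2121 on PLX5622, lowest 2234 on vehicle). Within PLX5622, 2 of the 16 were called higher than in naive mice at 1 day, 3 at 7 days and 11 at 30 days, and none lower. Csf1r, the drug's target, averaged 8.77 ± 3.64 normalised counts in naive PLX5622 mice (SD, n = 6), against 198 ± 21.4 in naive vehicle mice (SD, n = 7). All values below are normalised counts, which compare mice for 1 gene but not 1 gene with another, since each gene has its own probe. Differences are on the log2(value + 1) scale, from limma fitted to all 799 genes and 55 mice with the cartridge as covariate, and a difference is called where its adjusted p (Benjamini-Hochberg over 799 genes) is under 0.05. Nothing says that mice of a group came from separate cages or cohorts, so p-values measure the spread between these mice. In tissue of mixed cells, more or fewer cells of a type and more or less RNA per cell cannot be told apart.

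In the fit of all 55 mice, Olig2 was the only one of the 6 genes called against naive mice, and only at 1 day. On PLX5622, Olig2 was at 68.0, 157, 166, 171, 237, 248, 268 and 351 normalised counts at 1 day, against 78.7, 108, 112, 127, 148 and 149 in naive mice. Of the 8 injured mice, 7 lay above every naive mouse, and mouse 693 lay below all of them. On vehicle, Olig2 was at 132, 180, 186, 226, 237 and 252 normalised counts at 1 day, against a lowest value of 104, a median of 126 and a highest of 176 in naive mice. The vehicle groups overlapped through 1 injured mouse, although all 6 injured mice lay above the naive median.

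The Olig2 difference at 1 day was 0.78 ± 0.20 (SE) on PLX5622, a fold of 1.72 (limma adjusted p = 0.0101). On vehicle it was 0.52 ± 0.22 (SE), a fold of 1.44, and was not called (limma adjusted p = 0.239). Averaged over both diets, Olig2 rose by 0.65 ± 0.15 (SE), a fold of 1.57 (limma adjusted p = 0.00165). Called shares over all genes were 7.01% on PLX5622 (1 of 6 members), 2.25% on vehicle (0 of 6 members) and 11.4% over both diets (1 of 6 members). The difference between diets in this injury effect was 0.26 ± 0.30 (SE, limma adjusted p = 0.935), with a 95% interval of -0.34 to 0.86, and 0.39 without mouse 693 (limma adjusted p = 0.84). The median of all genes on PLX5622 was 0.10, and Olig2 relative to each mouse's median gene was higher by 0.67 (limma adjusted p = 0.00681).

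The PLX5622 call was lost without naive mouse 713, the lowest naive value (0.63, limma adjusted p = 0.0719), and when the 2 groups were fitted alone (0.85, limma adjusted p = 0.0702). Without mouse 693 it was 0.95 (limma adjusted p = 0.000125), and 0.76 over both diets (limma adjusted p = 2.12e-05). The average over both diets kept its call in every alternative and with any 1 mouse left out. Within extraction batches 1, 2 and 3, the Olig2 difference at 1 day was -0.07, 0.58 and 1.5 on PLX5622, and 0.93, 0.37 and 0.65 on vehicle. Batch 2 held 1 naive mouse per diet and batch 1 held 1 injured vehicle mouse, so these 3 values rest on a single mouse in 1 arm. The PLX5622 value of batch 1, the batch of mouse 693, thus had the opposite sign. DESeq2 on recovered counts also called the vehicle difference (0.55, DESeq2 adjusted p = 0.0440).

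**Figure D1:**
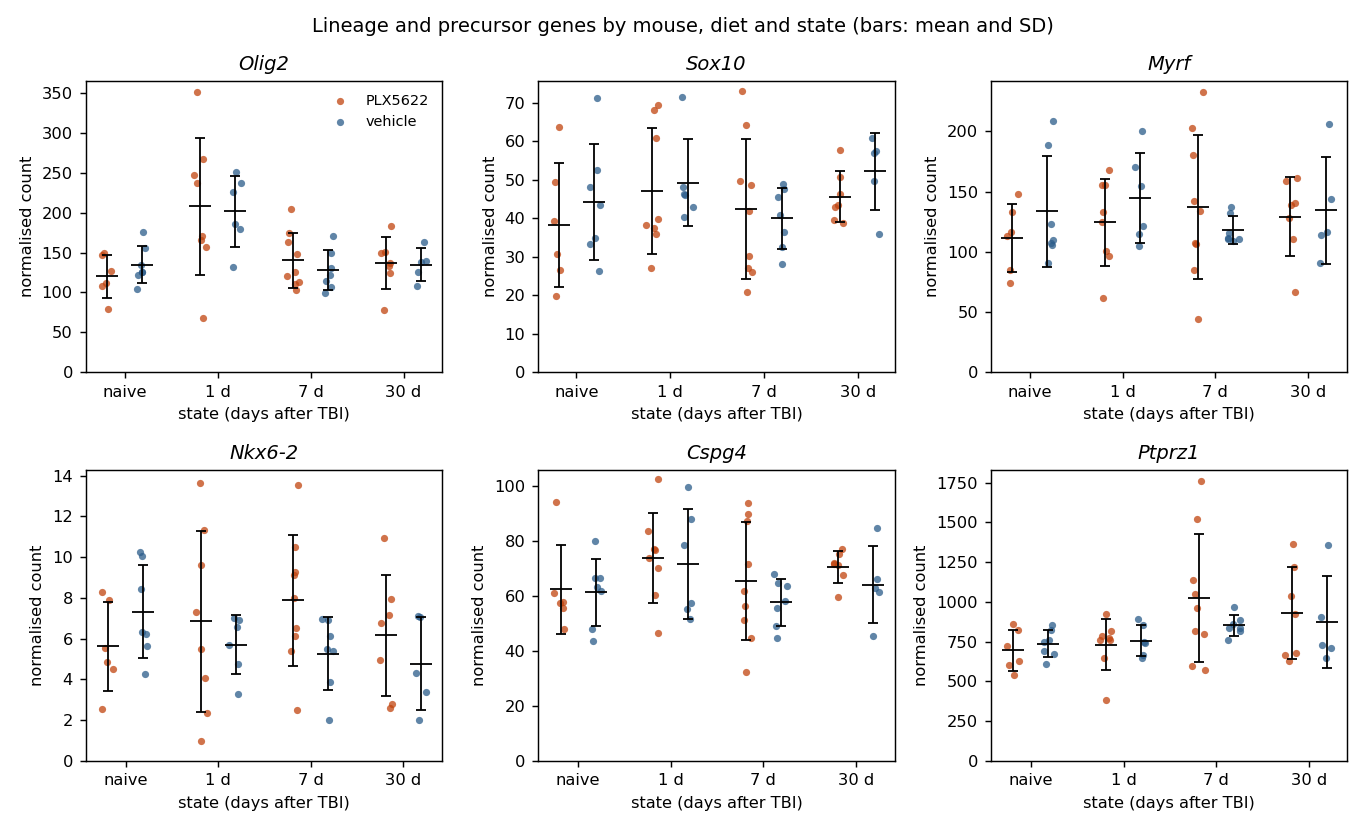
Normalised counts of the 6 genes (vertical axes from 0) by state (horizontal axes), with PLX5622 mice left of vehicle mice, 1 point per mouse, and bars for mean and SD. Olig2 is highest at 1 day on both diets (means 208 on PLX5622 and 202 on vehicle), and Ptprz1 spreads widely at 7 days on PLX5622 (568 to 1763).

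The other lineage factors and the precursor marker genes were not called at 1 day. Sox10 differed by 0.21 ± 0.22 on PLX5622 and 0.08 ± 0.23 on vehicle (SE), and Myrf by 0.04 ± 0.24 on PLX5622 and 0.24 ± 0.26 on vehicle. Cspg4 differed by 0.21 ± 0.17 on PLX5622 and 0.10 ± 0.18 on vehicle, and Ptprz1 by 0.15 ± 0.18 on PLX5622 and 0.06 ± 0.19 on vehicle. Nkx6-2 differed by -0.05 ± 0.33 on PLX5622 and -0.46 ± 0.36 on vehicle. The limma adjusted p of these 10 values was at least 0.535. Without mouse 693, the values on PLX5622 were 0.25 for Ptprz1, 0.11 for Myrf and -0.16 for Nkx6-2 (limma adjusted p at least 0.458). The intervals still hold sizeable changes: for Sox10 averaged over both diets the 95% interval was -0.18 to 0.47, and for Myrf it was -0.21 to 0.49.

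**Figure D2:**
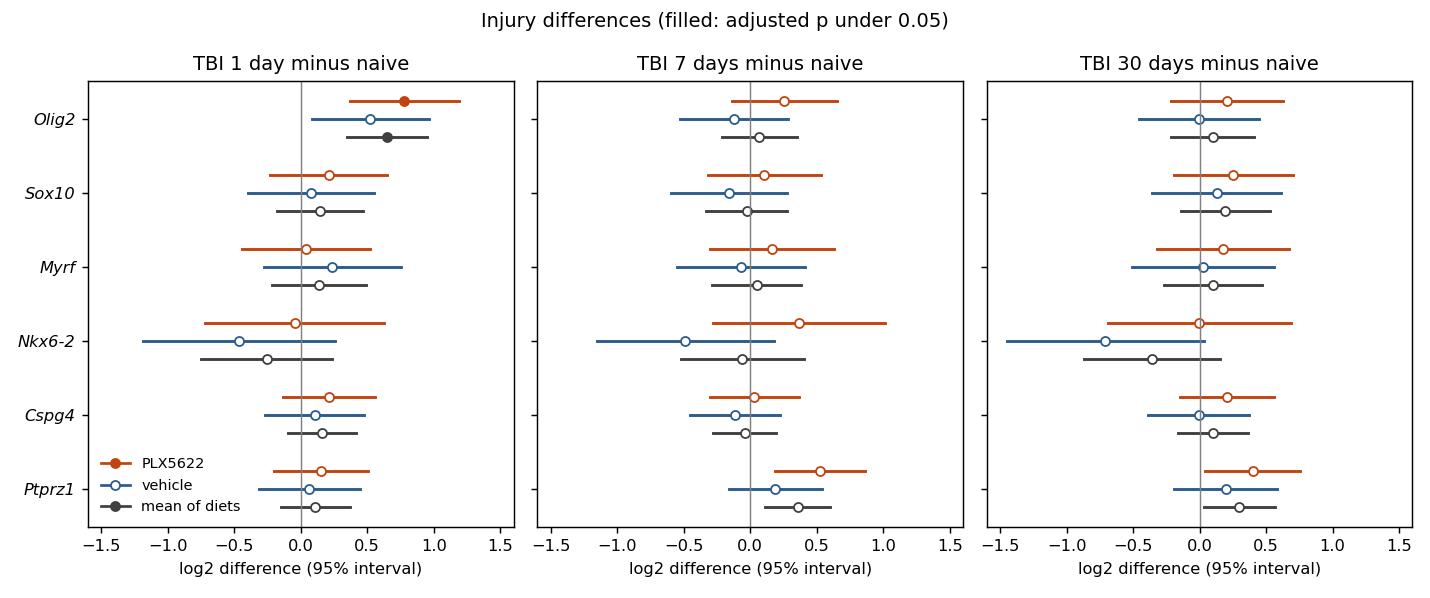
Log2 difference of TBI minus naive (horizontal axes) for each gene, with 95% intervals from limma, in panels for 1, 7 and 30 days. Colours give PLX5622, vehicle and the mean of both diets, and filled points have an adjusted p under 0.05: only Olig2 at 1 day, on PLX5622 (0.78) and over both diets (0.65).

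Some cell cycle genes and some markers of other cells moved at the same time, when 11.4% of all genes were called over both diets. Of 4 measured cell cycle genes, 3 were called higher at 1 day over both diets and none lower: Myc by 0.95 ± 0.14, Ccnd1 by 0.95 ± 0.15 and Cdk2 by 0.59 ± 0.18 (SE, limma adjusted p at most 0.0207). Ccnd1 encodes cyclin D1, Cdk2 a kinase of the cell cycle and Myc a growth factor-induced transcription factor. Of 7 astrocyte markers, Gfap, Aldh1l1 and Aqp4 were called higher and none lower. The list did not move as a whole. Mean Gja1, another of its genes, was 275 normalised counts at 1 day on PLX5622, against 359 in naive mice. On vehicle it was 337 at 1 day, against 425 in naive mice. Gfap, the intermediate filament of reactive astrocytes, rose by 2.97 ± 0.41 (SE, limma adjusted p = 6.65e-07). The summed astrocyte markers ran between 16854 and 32275 normalised counts at 1 day on PLX5622, against 16022 to 30389 in naive PLX5622 mice. On vehicle they ran between 18418 and 26447 at 1 day, against 14335 to 20445 in naive mice. The summed cell cycle genes ran between 581 and 1344 normalised counts at 1 day on PLX5622, against 590 to 982 in naive PLX5622 mice. On vehicle they ran between 891 and 1386 at 1 day, against 642 to 1125 in naive mice. No marker of either list was at 0 in any mouse. Of 16 microglia markers, Cd68, Spi1 and Itgam were called higher over both diets, by 1.16 ± 0.23, 0.83 ± 0.24 and 1.01 ± 0.33 (SE, limma adjusted p at most 0.0342), and none lower. The summed microglia markers ran between 265 and 530 normalised counts at 1 day on PLX5622, against 198 to 365 in naive PLX5622 mice. On vehicle they ran between 3377 and 4492 at 1 day, against 2482 to 3071 in naive mice, without overlap. The part of these 3 lists in the Olig2 difference was not tested.

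At 7 days Ptprz1 had the largest difference of the 6 genes relative to its error, and no member was called. On PLX5622, Ptprz1 was at 568, 596, 798, 819, 964, 1051, 1140, 1523 and 1763 normalised counts at 7 days, against a lowest value of 542, a median of 675 and a highest of 864 in naive mice. The groups overlapped, with 5 of 9 injured mice above every naive mouse. On vehicle, Ptprz1 ran between 763 and 966 normalised counts (median 838) at 7 days, against 610 to 856 (median 747) in naive mice. All 7 injured vehicle mice lay above the naive median. The difference was 0.52 ± 0.17 on PLX5622 (SE, limma adjusted p = 0.0986), 0.19 ± 0.17 on vehicle (SE, limma adjusted p = 0.783) and 0.36 ± 0.12 over both diets (SE, limma adjusted p = 0.101).

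Other count models gave another call for Ptprz1 at 7 days over both diets: edgeR 0.38 (edgeR adjusted p = 0.0373) and DESeq2 0.38 (DESeq2 adjusted p = 0.0218). Leaving out mouse 694, the lowest of its group, also gave a call, on PLX5622 (0.59, limma adjusted p = 0.0430) and over both diets (0.39, limma adjusted p = 0.0388). With the total count as a further covariate the value over both diets was 0.28 (limma adjusted p = 0.152). Within extraction batches 1, 2 and 3 the difference was 0.44, -0.02 and 0.72 on PLX5622, and 0.45, 0.01 and 0.17 on vehicle, where both batch 2 values rest on 1 naive mouse and the batch 1 vehicle value on 1 injured mouse. The share of all genes called at 7 days was 1.5% on PLX5622, 3.75% over both diets and 0% on vehicle, with 0 of 6 members each time. On vehicle, 51 of 799 genes had an unadjusted p under 0.05 in limma, and edgeR called 9 and DESeq2 12.

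Astrocyte and microglia markers differed at 7 days, beside Ptprz1. On PLX5622, 3 of 7 astrocyte markers were called higher and none lower, with a list median of 0.40 against 0.08 over all genes. Gfap rose by 2.55 ± 0.54, Aqp4, a water channel of astrocyte endfeet, by 1.15 ± 0.25, and Gja1, a gap junction protein, by 0.71 ± 0.19 (SE, limma adjusted p at most 0.0467). The summed list ran between 13095 and 32932 normalised counts at 7 days on PLX5622 (median 26132), against 16022 to 30389 in naive PLX5622 mice (median 16780). None of the 7 was at 0 in any mouse. Of 16 microglia markers, Cx3cr1, C1qa and C1qb were called higher at 7 days on PLX5622, by 1.67 ± 0.32, 2.30 ± 0.48 and 2.39 ± 0.52 (SE, limma adjusted p at most 0.00569), with a list median of 0.74. The summed microglia markers ran between 283 and 924 normalised counts at 7 days on PLX5622, against 198 to 365 in naive PLX5622 mice. The part of both lists in the Ptprz1 values was not tested.

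The other members at 7 days gave values with intervals that include 0. Over both diets Olig2 differed by 0.07 ± 0.14, Sox10 by -0.03 ± 0.15, Myrf by 0.05 ± 0.17, Nkx6-2 by -0.06 ± 0.23 and Cspg4 by -0.04 ± 0.12 (SE, limma adjusted p at least 0.919). At 30 days no member was called on either diet. Olig2 was at 108, 126, 138, 139 and 164 normalised counts at 30 days on vehicle, against 104 to 176 in naive vehicle mice, so the injured mice lay inside the naive range. Ptprz1 was at 649, 712, 730, 907 and 1360 normalised counts at 30 days on vehicle, against 610 to 856 in naive vehicle mice, and 2 of the 5 lay above it. On PLX5622, Ptprz1 ran between 629 and 1361 normalised counts at 30 days (median 926), against 542 to 864 in naive mice (median 675).

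The Ptprz1 difference at 30 days was 0.40 ± 0.18 on PLX5622 (SE, limma adjusted p = 0.355), against an all-gene median of 0.11. Over both diets it was 0.30 ± 0.13 (SE, limma adjusted p = 0.354). Nkx6-2 on vehicle had the lowest value at 30 days, -0.71 ± 0.37 (SE, limma adjusted p = 0.993). Called shares at 30 days were 2.25% on PLX5622, 1.88% over both diets and 0% on vehicle, each with 0 of 6 members. On vehicle 29 genes had an unadjusted p under 0.05 in limma, edgeR called 0 and DESeq2 1.

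Between 1 and 7 days Olig2 fell, in a comparison added after its values had been seen. Over both diets it fell by 0.58 on the log2 scale, with an SE of 0.14 (limma adjusted p = 0.00512). The 1-day mice are those of the comparison with naive mice, so this p-value is not independent of the rise at 1 day. The share of all genes called was 6.38%, with 1 of 6 members called. On PLX5622 Olig2 ran between 104 and 204 normalised counts at 7 days, against 68.0 to 351 at 1 day, and on vehicle between 99.9 and 171 at 7 days, against 132 to 252 at 1 day. The groups overlapped on both diets, and all 7 vehicle mice at 7 days lay below the vehicle median of 1 day. Within each diet the difference was not called in limma: -0.52 ± 0.18 on PLX5622 (limma adjusted p = 0.117) and -0.64 ± 0.21 on vehicle (limma adjusted p = 0.236).

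Without mouse 693 the PLX5622 difference was called, at -0.70 (limma adjusted p = 0.00497). With it, centring on each mouse's median gene (-0.51, limma adjusted p = 0.0348), edgeR (-0.59, adjusted p = 0.0232) and DESeq2 (-0.60, adjusted p = 0.00468) also called it. DESeq2 called the vehicle fall too (-0.62, DESeq2 adjusted p = 0.0338). The shares of all genes called between 7 days and 1 day were 2.38% on PLX5622 and 0% on vehicle, and between 30 days and 7 days 0% on each diet, with 0 of 6 members throughout. Where limma called 0 genes, the genes with an unadjusted p under 0.05 numbered 66 for 7 days against 1 day on vehicle, 33 for 30 days against 7 days on PLX5622 and 71 for the same step on vehicle. For these comparisons edgeR called 9, 1 and 6 genes and DESeq2 14, 1 and 4. Within extraction batches 1, 2 and 3 the Olig2 difference was 0.14, -0.83 and -0.98 on PLX5622, and -1.04, -0.65 and -0.56 on vehicle. In batch 1 the PLX5622 value had the opposite sign, and the vehicle value sets 1 mouse against 1.

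The diet changed none of the 6 genes past the threshold. Averaged over the 4 states, PLX5622 minus vehicle was 0.00 for Olig2 with a 95% interval of -0.21 to 0.20. For the other factors it was -0.15 for Sox10 (-0.37 to 0.08), -0.13 for Myrf (-0.38 to 0.11) and 0.08 for Nkx6-2 (-0.25 to 0.42). For the surface markers it was 0.08 for Cspg4 (-0.10 to 0.25) and 0.06 for Ptprz1 (-0.12 to 0.24). The limma adjusted p of these 6 values was at least 0.521. The share of all genes called was 6.63%, nearly all lower (50 of 53), with 0 of 6 members.

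Within each state no member was called either. PLX5622 against vehicle called 3.38% of genes in naive mice, 4.13% at 1 day, 4.13% at 7 days and 2.63% at 30 days, with 0 of 6 members each time. Without mouse 693 Olig2 at 1 day was 0.19, against 0.04 with it, and the limma adjusted p of the 6 members was at least 0.751. In naive mice Olig2 had a median of 119 normalised counts on PLX5622, against 126 on vehicle. Medians in naive mice were 35.0 on PLX5622 and 43.4 on vehicle for Sox10, and 57.6 on PLX5622 and 63.1 on vehicle for Cspg4. Every member's range on PLX5622 overlapped its range on vehicle in naive mice. The naive differences were -0.22 for Olig2, -0.28 for Sox10, -0.18 for Myrf, -0.41 for Nkx6-2, -0.04 for Cspg4 and -0.10 for Ptprz1, beside an all-gene median of -0.14. At the widest, the 95% interval for Nkx6-2 at 30 days was -0.43 to 1.02, and the narrowest interval in a single state was Cspg4 at 7 days (-0.22 to 0.42). In the same comparison of naive mice, 15 of 16 microglia markers were called lower, with a list median of -2.74.

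**Figure D3:**
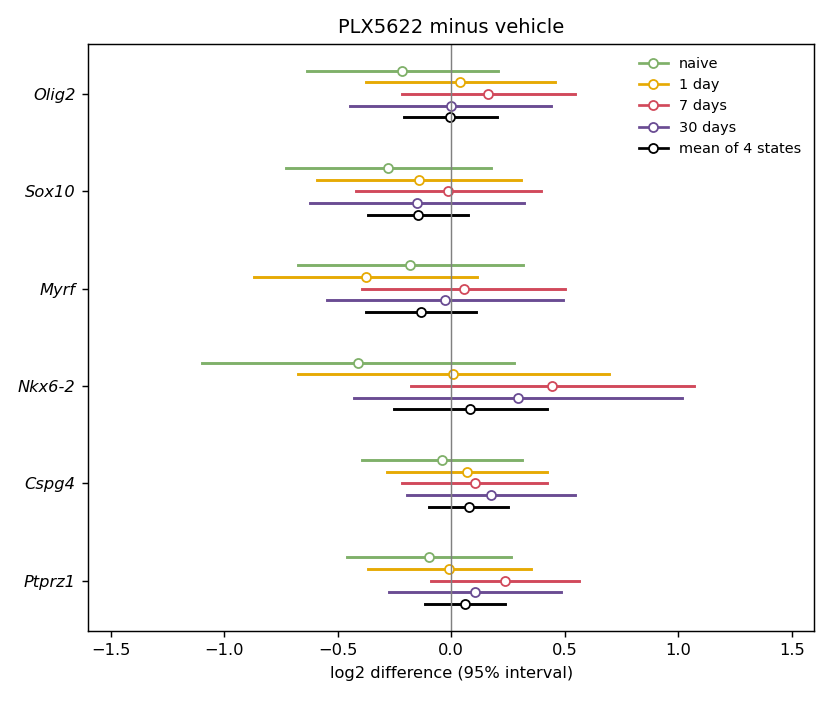
Log2 difference of PLX5622 minus vehicle (horizontal axis) for each gene with 95% intervals from limma, in naive mice, at 1, 7 and 30 days, and as the mean of the 4 states. Every interval includes 0, and for the mean of the 4 states they lie between -0.38 and 0.42.

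The injury effect was also compared between diets. No member was called in this interaction at 1, 7 or 30 days, when the share of all genes called was 0.125%, 0% and 0.375%. At 7 days 34 genes had an unadjusted p under 0.05 in limma, and edgeR and DESeq2 each called 0. The largest interaction of a member was Nkx6-2 at 7 days, 0.86 ± 0.46 (SE, limma adjusted p = 0.812), with an interval of -0.08 to 1.79. For Ptprz1 it was 0.34 ± 0.24 at 7 days (SE, limma adjusted p = 0.812), with the all-gene median at 0.15. These comparisons share naive mice with the injury comparisons above.

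Levels across the 8 groups set Olig2 apart from the other members in 1 respect. Mean Olig2 was 208 ± 86.2 normalised counts at 1 day on PLX5622 and 202 ± 44.5 at 1 day on vehicle, and the next group, 7 days on PLX5622, was at 141 ± 34.4 (SD). The gap below the 1-day groups, between 1 day on vehicle and 7 days on PLX5622, was 61.5. It was larger than the larger SD of these neighbours (44.5), but smaller than the SD of 86.2 at 1 day on PLX5622. All other neighbours in the order, from 141 down to 120 ± 26.8 in naive PLX5622 mice, lay within the larger SD of their pair. For each of the other 5 genes all 7 steps of the order lay within the larger SD.

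Sox10 averaged lowest in naive PLX5622 mice (38.2 ± 16.2) and highest at 30 days on vehicle (52.2 ± 9.97). Means of Sox10 in the PLX5622 groups at 1, 7 and 30 days were 47.1, 42.4 and 45.6, and in the vehicle groups naive and at 1 and 7 days 44.2, 49.2 and 39.9 normalised counts. Its groups all overlapped, and the coefficient of variation within a group reached 42.7%. Myrf averaged lowest in naive PLX5622 mice (112 ± 28.1) and highest at 1 day on vehicle (145 ± 37.2). Means of Myrf in the PLX5622 groups at 1, 7 and 30 days were 124, 137 and 129, and in the vehicle groups naive and at 7 and 30 days 134, 118 and 134 normalised counts. The spread of Myrf differed between groups: at 7 days the SD was 59.7 on PLX5622 and 11.7 on vehicle.

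Nkx6-2 was the weakest signal, with 1 to 15 recovered counts per mouse (median 6), and 36 of the 799 genes had a lower mean. Its group means ran from 4.77 ± 2.27 at 30 days on vehicle up to 7.88 ± 3.21 at 7 days on PLX5622. Whether it stood above the assay's background was not tested. Its intervals were wide, so sizeable differences of Nkx6-2 could go uncalled at this depth. Cspg4 ran from a mean of 57.6 ± 8.61 at 7 days on vehicle up to 73.7 ± 16.4 at 1 day on PLX5622. Its means in naive mice were 62.2 ± 16.2 on PLX5622 and 61.2 ± 12.3 on vehicle. The highest group mean of Cspg4 was 1.28 times the lowest, the smallest ratio of the 6 but close to that of Myrf (1.30). Ptprz1 means ran from 697 ± 129 in naive PLX5622 mice up to 1025 ± 402 at 7 days on PLX5622. The group coefficient of variation of Ptprz1 ran between 7.44% and 39.3%.

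Other genes of the lineage were counted beside the share of all genes called. Of 19 measured genes of differentiated oligodendrocytes and myelin, 0 were called for the diet in any state, and only Trf was called after injury. Of all genes, between 2.63% and 4.13% were called for the diet within a state. At 1 day over both diets the share was 11.4%, and for 7 days against 1 day 6.38%. The list was not tested against these shares. Trf, the iron carrier transferrin that oligodendrocytes make, rose by 0.63 ± 0.20 at 1 day over both diets (SE, limma adjusted p = 0.0268), and fell by 0.78 at 7 days against 1 day (limma adjusted p = 0.00455). The list median at 1 day over both diets was -0.02, against 0.02 over all genes. The summed list ran between 9233 and 20912 normalised counts at 1 day on PLX5622 and 12971 and 16469 on vehicle, against 7609 to 21779 in naive PLX5622 and 9437 to 21882 in naive vehicle mice. Of 22 listed precursor markers beyond the members, the table used here measured Tnr, a matrix protein, which was not called in any comparison.

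Ligands, receptors and regulators of precursor growth gave 2 called genes among 21 measured. Lif, a cytokine of the interleukin 6 family, rose by 1.40 ± 0.27 at 1 day over both diets (SE, limma adjusted p = 0.000129). Cxcl12, a chemokine, was higher on PLX5622 by 0.31 ± 0.08 over the 4 states (SE, limma adjusted p = 0.0092). The list median was 0.04 at 1 day over both diets against 0.02 over all genes, and -0.04 for the diet against -0.05 over all genes. Called shares over all genes were 11.4% at 1 day over both diets and 6.63% for the diet over the 4 states. Beside Cspg4, 2 of 10 pericyte and endothelial markers were called higher at 1 day over both diets, where 11.4% of all genes were called. They were Pecam1, by 0.55 ± 0.15, and Eng, by 0.35 ± 0.12 (SE, limma adjusted p at most 0.0494). Neither list was tested against the share of all genes. The sum of the 10 markers ran between 1003 and 2565 normalised counts at 1 day on PLX5622 and 893 and 1911 on vehicle. In naive mice it was 839 to 1493 on PLX5622 and 875 to 1561 on vehicle. None was at 0 in any mouse, and their part in the Cspg4 values was not tested.

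The genes most like each member across the 55 mice were named by Pearson r on log2 levels, as a description, since all points share the same samples and their depth. Ptprz1 was most like Clu (r = 0.87), which encodes clusterin, Aqp4 (0.80) and Gja1 (0.78). Myrf was most like Gpr37 (0.81), Pllp (0.72) and Fa2h (0.71), which are all on the myelin list. Sox10 was most like Trf (0.69), Gjb1 (0.66), a connexin of oligodendrocytes, and Rhoa (0.62). Olig2 was most like Ccnd1 (0.79), Stat3 (0.79), a transcription factor of cytokine signalling, and Tnfrsf1a (0.77), a receptor of tumour necrosis factor. Cspg4 was most like Hdac7 (0.76) and Crtc2 (0.74). Nkx6-2 was at most like Slc1a2 (0.46), Erlec1 (0.46) and Cxcl12 (0.44), which is weak at its counts.

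After group and cartridge means were removed, the nearest genes were Clu (0.80), Gja1 (0.78) and Cd9 (0.77) for Ptprz1, and Gpr37 (0.84), Pllp (0.83) and Fa2h (0.77) for Myrf. For Olig2 they were Pfn1 (0.74), Stat3 (0.73) and Cxxc1 (0.73), and for Sox10 Trf (0.64), Gjb1 (0.55) and Dnm2 (0.53). For Cspg4 they were Aldh1l1 (0.75), Hdac7 (0.74) and Bcl2l1 (0.70), and for Nkx6-2 Slc1a2 (0.43), Tnfrsf1b (0.42) and Mfge8 (0.42). The median r of Myrf with the 19 myelin genes was 0.59 on log2 levels, that of Sox10 was 0.36 and that of Olig2 was 0.07. The median r of Ptprz1 with the 7 astrocyte markers was 0.50, and that of Olig2 with the 4 cell cycle genes was 0.57. Over all 798 other genes the median was between -0.01 and 0.14 for the 6 members.

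**Figure D4:**
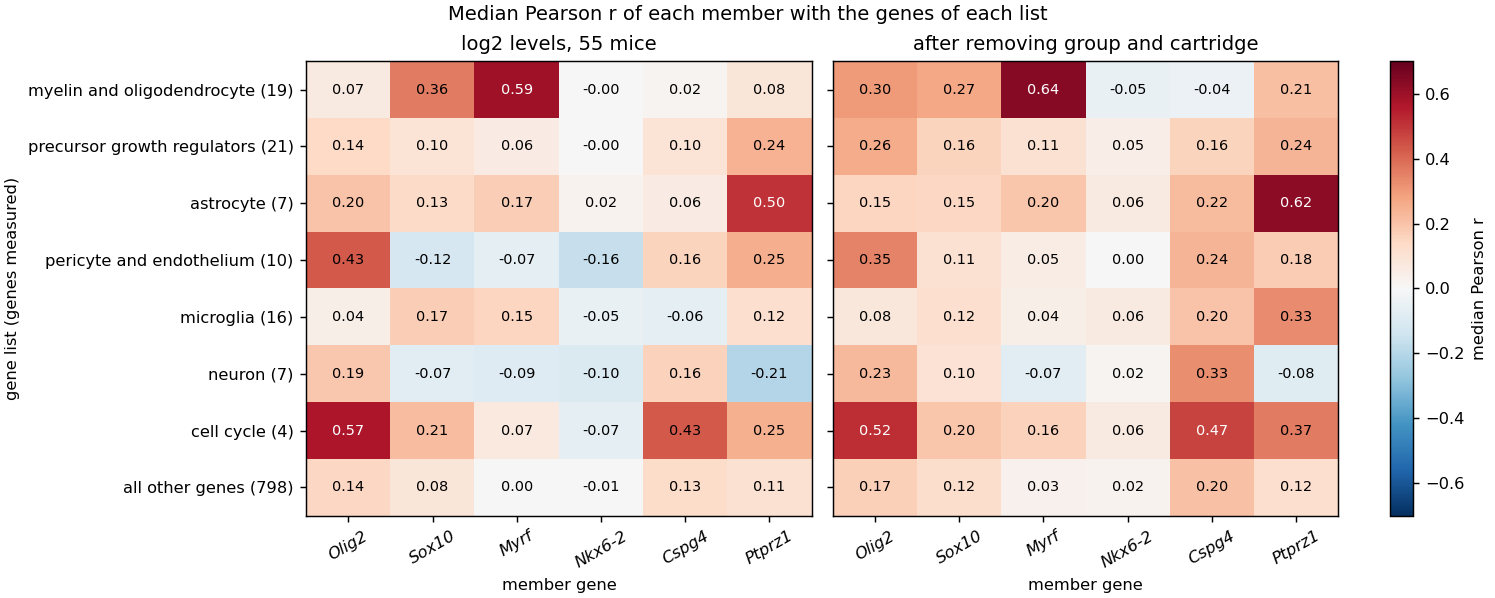
Median Pearson r over 55 mice of each member (columns) with the genes of each list (rows, number of genes measured in brackets), on log2 levels at left and after group and cartridge means were removed at right. Myrf with the myelin list (0.59 and 0.64), Ptprz1 with the astrocyte list (0.50 and 0.62) and Olig2 with the cell cycle genes (0.57 and 0.52) are the highest of the lists drawn, which leave out the single precursor marker Tnr (0.38 and 0.58 with Olig2).

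The members followed each other only in part. Of 15 pairs, 2 had an adjusted permutation p under 0.05 for Pearson r over the 55 mice, with 100000 resamples and two-sided tests. For Spearman's rho 3 did, the third being Olig2 with Cspg4 (rho = 0.35, adjusted permutation p = 0.0432), whose r was 0.34 (adjusted permutation p = 0.0623). Mice were permuted freely across groups, cartridges and extraction batches, so these p-values may be too small. Sox10 and Myrf had r = 0.43 (permutation p = 0.00106, adjusted 0.00975) and rho = 0.47 (permutation p = 0.00037), and r = 0.49 without the 2 mice farthest from the median. Within extraction batches 1, 2 and 3, r was 0.08, 0.62 and 0.38 (n = 14, 20 and 21 mice), and no pair of members passed the adjusted threshold within a batch in a permutation test.

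Sox10 and Cspg4 had r = 0.42 (permutation p = 0.0013, adjusted 0.00975) and rho = 0.37 (permutation p = 0.00569), and r = 0.33 without the 2 farthest mice (adjusted permutation p = 0.0743), so this relation rests partly on those mice. Within the batches it was 0.61, 0.07 and 0.54. After group and cartridge means were removed 5 pairs passed: both of these (0.37 and 0.38), Olig2 with Myrf (0.46), Olig2 with Ptprz1 (0.49) and Myrf with Ptprz1 (0.37). Their adjusted permutation p was at most 0.0158, from permutations that treat the values left after removal as independent. Removing the means ties these values to each other, so the p-values may be too small.

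Normalised levels of 4 members also went with the total count of the mouse, in 6 relations computed. With log2 total count, Ptprz1 had r = 0.53 (rho = 0.48), Sox10 r = -0.50 (rho = -0.47), Cspg4 r = -0.49 (rho = -0.44) and Nkx6-2 r = -0.44 (rho = -0.47). Their permutation p was at most 0.00069 for r and 0.00089 for rho, and at most 0.00133 after adjustment over the 6 relations. These permutations moved mice freely across groups, cartridges and extraction batches, so the p-values may be too small. Without the 2 farthest mice r was 0.48, -0.42, -0.44 and -0.42 in the same gene order. Olig2 (r = 0.24, rho = 0.23, adjusted permutation p = 0.097) and Myrf (r = 0.08, rho = -0.05, adjusted permutation p = 0.573) did not pass over all mice. Within batches 1, 2 and 3, however, r was 0.16, 0.75 and 0.52 for Myrf, and 0.49, 0.11 and 0.10 for Olig2. In the same batches r was 0.72, 0.35 and 0.45 for Ptprz1, -0.48, -0.51 and -0.55 for Cspg4, -0.56, -0.42 and -0.30 for Nkx6-2 and -0.31, 0.24 and -0.43 for Sox10, which changed sign in batch 2. With the total count removed, Sox10 and Myrf had r = 0.54 (adjusted permutation p = 0.0003), Olig2 and Cspg4 r = 0.54 (adjusted permutation p = 0.0003), and Sox10 and Cspg4 r = 0.23 (adjusted permutation p = 0.233). With the total count in the fit, Olig2 at 1 day on PLX5622 was 0.78 (limma adjusted p = 0.00499).

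**Figure D5:**
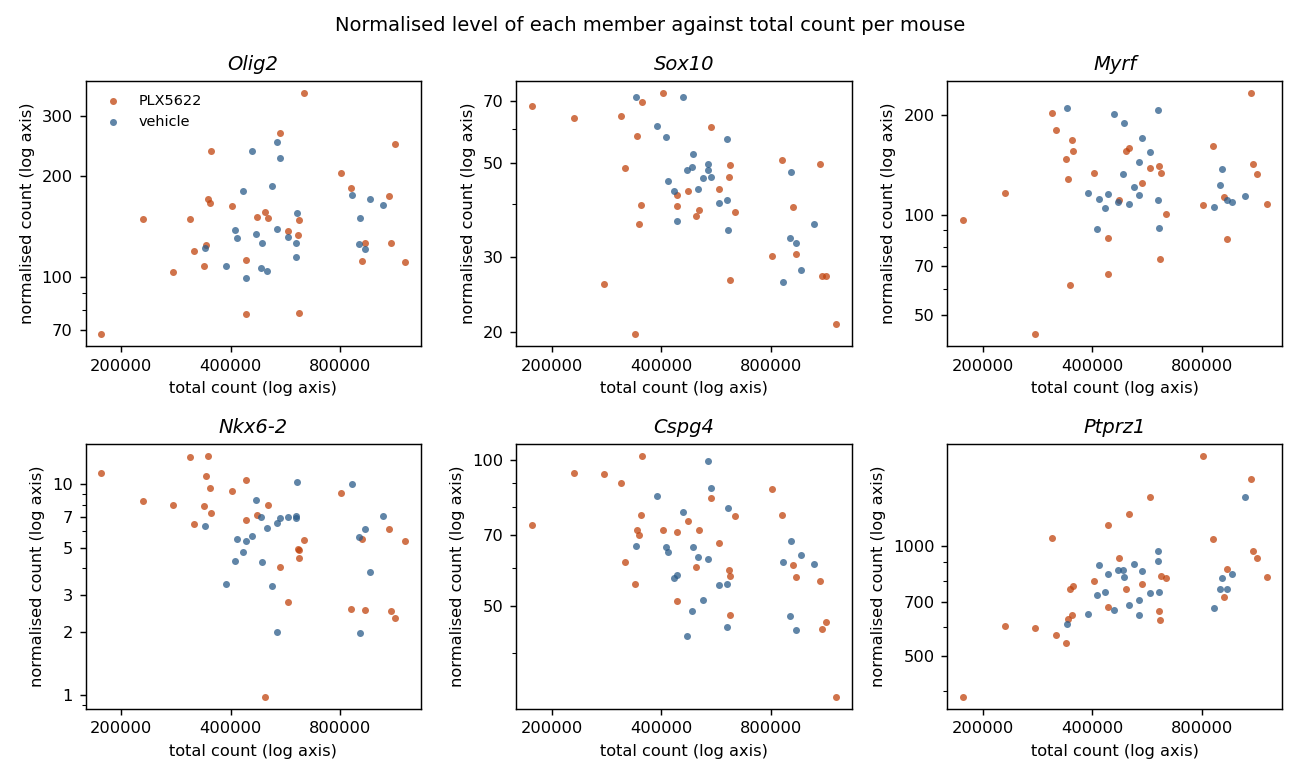
Normalised count of each gene (vertical log axes) against the total count of the mouse (horizontal log axes), 1 point per mouse, coloured by diet. Sox10, Nkx6-2 and Cspg4 are lower and Ptprz1 higher in mice with more counts (r = -0.50, -0.44, -0.49 and 0.53).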

How the data were processed

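Cortex of 55 mice was measured for 799 genes. Per the labels' protocols, RNA came from dissected frozen sections and was pre-amplified by cycles set on housekeeping genes. The deposited signal is the authors' normalised count, on a linear scale with 1 factor per mouse. The submitters' processing notes name DESeq2 without a version, and say nothing here of background subtraction. In every mouse 100% of values were a whole number times a constant (tolerance 0.02), so whole counts were recovered and used in edgeR and DESeq2 as alternatives.

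Groups came from the labels; 1 naive vehicle mouse carries a day in its title and was kept as naive by its injury label. The members, the gene lists and the tests were chosen with earlier results of these data known. Tests used limma 3.58.1 in R 4.3.3 (lmFit, eBayes with trend, two-sided) on log2(value + 1), which understates folds of low genes, with 8 group means, the cartridge and all 55 mice, with Benjamini-Hochberg adjustment across the 799 genes for each of 22 comparisons, 1 of them added after values were seen. Named genes were the 6 members, the 3 genes most like each of them (r over 55 mice, and r of residuals; 1 of these is not reported here), and up to 4 called genes per list (2 where none was called). Alternatives were edgeR 4.0.16, DESeq2 1.42.0, no covariate, extraction batch with or in place of cartridge, 2 centrings (sample median, 9 reference genes), a filter on means under 20, a pseudocount of 10, eBayes without trend or robust, the compared groups alone, and each mouse left out; total count as covariate was added after seeing the data. The 9 reference genes were those at 1 repeated value above 20 in 3 or more mice. They were taken from the deposited values themselves, so this centring is not independent of the authors' normalisation. Mouse numbers name animals and are shared by no 2 groups. The fits were tested on simulated data. Correlations used permutation tests in scipy 1.17.1. Promoters came from RefSeq on GRCm38.p6.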

Additional observations from a re-analysis of the deposited data

Results flagged for a closer look

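Of 48 pairs of a member and a group, 4 held a mouse far from the rest of its group by Dixon's test, which chance gives in about 1 group in 20. Sox10 at 1 day on vehicle had mouse 697 at 71.4566 normalised counts, against 40.3 to 48.2 in the other mice of the group. Myrf at 30 days on PLX5622 had mouse 733 at 66.5702, against 111 to 161 in the others. Cspg4 in naive PLX5622 mice had mouse 698 at 94.1016, against 48.0 to 60.9 in the others. Ptprz1 at 1 day on PLX5622 had mouse 693 at 385.451, against 647 to 924 in the others, and this mouse also had the lowest total count of the series (176038). Mouse 698 had the lowest total count of the naive PLX5622 group (230246).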

How the results depend on the processing

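Of 1688 values of single members under alternatives other than leaving out a mouse, 1680 kept their side of the threshold, 1 lost its call and 7 gained one. Of 7260 with 1 mouse left out, 7256 kept their side, 1 lost its call and 3 gained one. Nearly all of these values belong to differences not called in limma with all mice, so most that kept their side stayed uncalled. The differences called there were all of Olig2. The sign changed in 101 of the 1688 and 178 of the 7260, and 0 of these were called differences. The number of members called changed as follows. For 7 days against 1 day on PLX5622 it was 1 with centring on the sample median, 1 in edgeR and 1 in DESeq2, against 0, and between 0 and 1 with a mouse left out (1 without mouse 693). For TBI at 7 days over both diets it was 1 in edgeR and 1 in DESeq2, against 0, and between 0 and 1 with a mouse left out (1 without mouse 694, likewise for PLX5622 alone at 7 days). In DESeq2 it was 1, against 0, for TBI at 1 day and for 7 days against 1 day on vehicle. For TBI at 1 day on PLX5622 it was 0 with the compared groups alone, against 1, where fewer mice set the spread, and between 0 and 1 with a mouse left out (0 without mouse 713). The number of correlated pairs of members was 5 after group and cartridge means were removed and 0 in each extraction batch alone, where fewer mice were compared, against 2. The cause of these changes was not tested. No paired analysis was possible because no 2 groups share a mouse number.

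Over all genes, the number called moved by more than 1.5 times in these comparisons, given with the lowest and highest number over the alternatives: 7 days against 1 day on PLX5622, 2 to 57 (19 in limma with all mice), and on vehicle, 0 to 14 (0); 30 days against 7 days on PLX5622, 0 to 1 (0), and on vehicle, 0 to 6 (0); TBI at 1 day on PLX5622, 33 to 68 (56), and on vehicle, 13 to 65 (18). For TBI at 7 days the range was 3 to 28 (12) on PLX5622, 0 to 12 (0) on vehicle and 19 to 58 (30) over both diets. For TBI at 30 days it was 0 to 1 (0) on vehicle and 8 to 32 (15) over both diets, and for the interaction 0 to 2 (1) at 1 day and 0 to 5 (3) at 30 days. Nkx6-2 had 1 to 15 recovered counts per mouse.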
